A study of Mus musculus with 21 samples.

Results

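Epididymal white fat of germ-free and conventionally raised mice was compared late in the night, at ZT18 and ZT22, zeitgeber time being counted in hours from lights on. The libraries were chosen by their labels alone: 7 of the 21 libraries of the series were sampled at these times, 4 conventional (2 at ZT18 and 2 at ZT22) and 3 germ-free (1 at ZT18 and 2 at ZT22). All came from C57BL/6j males aged 15 to 16 weeks that fed ad libitum, and the arms differed in raising, conventional against germ-free, which means without any microbiota. The other 14 libraries, 8 conventional and 6 germ-free, were taken at ZT02, ZT06, ZT10 and ZT14 and served only for the comparison with the rest of the day. RNA was read as stranded total RNA after removal of ribosomal RNA, and the deposited values were whole read counts over exons for 38087 genes. The sources used here do not say that each library came from its own mouse, and each p-value therefore reflects library-to-library spread, which may be technical. Because whole tissue was read, fewer cells of a type and less RNA per cell cannot be told apart.

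White adipocytes store fatty acids as triglyceride and release them by lipolysis. Mice eat mostly at night, when insulin drives glucose into adipocytes for glycogen and for the making of new fatty acids. Genes of cholesterol and fatty acid synthesis are driven by the SREBP transcription factors, which the INSIG proteins hold in the endoplasmic reticulum while sterols are plentiful, and Insig1 is itself an SREBP target. The gut microbiota is known to change how much fat mice store and how their tissues keep time.

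Promoters are shown for 3 genes of sterol metabolism, since Insig1 and Msmo1 rose in germ-free fat and 20 of 22 tested genes of the cholesterol list were higher there without overlap of the arms. Msmo1 encodes a C-4 sterol methyl oxidase, Insig1 the sterol sensor that retains SREBP, and Hmgcs1 the synthase that makes HMG-CoA. Each run covers 250 bases before to 50 bases after the RefSeq gene start on build GRCm38.p6, 5′ to 3′ on the gene's strand, and lies at chr8:64733529-64733828 on the minus strand for Msmo1, chr5:28071162-28071461 on the plus strand for Insig1 and chr13:119690101-119690400 on the plus strand for Hmgcs1. Capitals mark the CCAAT box in either orientation (CCAAT or ATTGG) and, in Hmgcs1, a sterol regulatory element.
Msmo1: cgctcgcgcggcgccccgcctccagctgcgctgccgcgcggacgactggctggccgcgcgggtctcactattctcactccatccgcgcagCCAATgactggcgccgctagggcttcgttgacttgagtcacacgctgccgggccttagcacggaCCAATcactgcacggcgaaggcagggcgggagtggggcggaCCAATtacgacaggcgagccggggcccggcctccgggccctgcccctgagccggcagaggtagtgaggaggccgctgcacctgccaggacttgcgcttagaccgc
Insig1: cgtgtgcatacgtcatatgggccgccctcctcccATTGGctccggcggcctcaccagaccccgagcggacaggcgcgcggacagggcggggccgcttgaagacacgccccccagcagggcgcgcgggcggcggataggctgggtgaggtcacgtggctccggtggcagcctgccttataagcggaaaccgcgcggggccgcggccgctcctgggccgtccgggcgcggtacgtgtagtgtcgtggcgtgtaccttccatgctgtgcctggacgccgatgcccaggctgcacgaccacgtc
Hmgcs1: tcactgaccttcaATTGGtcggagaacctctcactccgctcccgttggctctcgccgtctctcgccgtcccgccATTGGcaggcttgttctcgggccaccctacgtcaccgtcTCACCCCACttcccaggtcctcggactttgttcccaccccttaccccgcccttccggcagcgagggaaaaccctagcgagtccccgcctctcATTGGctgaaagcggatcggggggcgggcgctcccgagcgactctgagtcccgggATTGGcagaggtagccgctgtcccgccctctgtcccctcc
The Hmgcs1 window holds the letters TCACCCCAC, which fit the searched sterol regulatory element TCACNCCAC, 137 bases before the start. The Insig1 window holds an E-box, CACGTG, 101 bases before the start, left in lower case. CCAAT boxes number 3 in Msmo1, 1 in Insig1 and 4 in Hmgcs1. Over all 32851 RefSeq windows of this length, searched on both strands and with 1 base free to count in more than 1 motif, 1.24% held the sterol element, 7.15% the E-box and 37.4% a CCAAT box. Of 23 cholesterol synthesis genes 15 matched the promoter table, and 14 of the 15 held a CCAAT box, 3 an E-box and 1 the sterol element. Of 20 lipogenesis genes 16 matched, with 10, 2 and 0 in the same order. These are counts of genes, a gene counting if any of its windows held the motif. Counted so over all 27025 genes, the shares were 41.1%, 8.09% and 1.44% in the same order. These matches describe letters, not binding.

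Total counts per library ran from 24388294 to 48348181. Adipocyte identity markers summed to 49432 to 61004 CPM, counts scaled by library total, in conventional and 45865 to 66772 CPM in germ-free libraries, so the tissue label held in all 7. One library stood apart: germ-free ZT22 replicate 1 held 575 CPM over 13 motile cilium genes, against 186 CPM in conventional ZT18 replicate 2, 76.6 CPM in conventional ZT22 replicate 2 and 5.58 to 23.7 CPM in the other 4. Epididymis and testis markers summed to 392 and 441 CPM in the germ-free ZT22 libraries, 145 CPM in conventional ZT22 replicate 1 and 0.953 to 40.8 CPM elsewhere, with 17 of 17 genes summed, and Lcn9 and Lcn8 at or near 0 outside germ-free ZT22 replicate 1. Liver markers other than Cyp2e1, which fat also makes, summed to 262 CPM in germ-free ZT22 replicate 1 and 28.9 to 123 CPM in the other 6. Across genes the log2 fold change declined with exon length (Spearman rho = -0.20, a description across genes, which are not independent), and the median exon length was 6031 bases for genes lower in germ-free fat and 3328 bases for all genes tested. What part these differences have in the results was not tested beyond the covariate and exon length fits given with the processing.

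**Figure D1:**
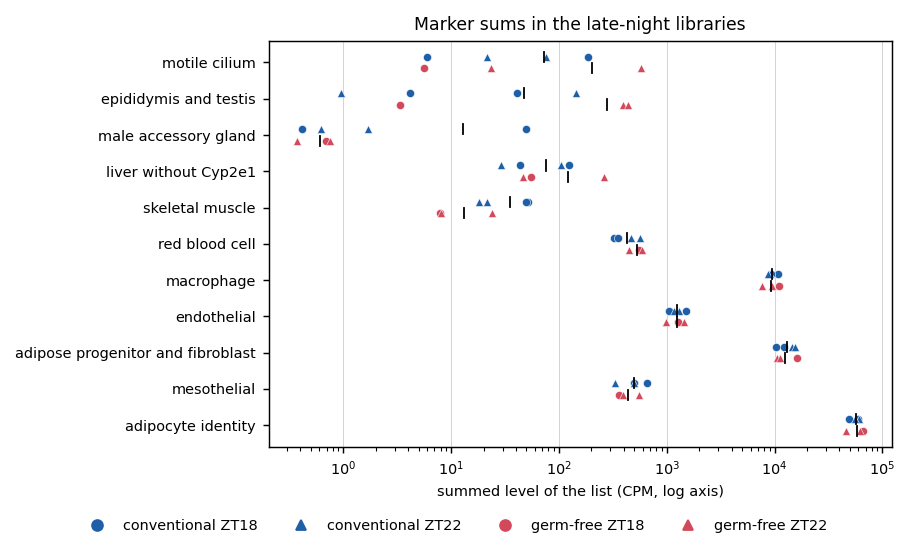
Summed CPM of each neighbouring-tissue marker and cell type list (rows; log axis) in the 7 late-night libraries, 1 point a library by arm and time, black ticks marking group means. Germ-free ZT22 replicate 1 holds the highest motile cilium sum, 575 CPM. In conventional libraries Lpl, also an adipocyte identity marker, averages 7737 of the 9449 CPM of the macrophage sum. Gsn averages 10674 of the 13123 CPM of the progenitor and fibroblast sum there.

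Between the arms 204 of 18335 tested genes (1.11%) passed an adjusted p of 0.05 in edgeR's quasi-likelihood test with Benjamini-Hochberg adjustment and time as a covariate. Of these 33 (0.18%) rose and 171 (0.933%) fell in germ-free fat, and 20 and 64 of them by over 2-fold. Counts of list members past the test, given below, are to be read beside these shares. In each of the 204 the germ-free and conventional libraries did not overlap; over all tested genes 2091 (11.4%) were higher and 2247 (12.3%) lower without overlap. The median log2 fold change of all genes was 0.03. The number of calls rested on single libraries: it was 1005 higher and 826 lower without germ-free ZT22 replicate 1, 2 and 5 without conventional ZT18 replicate 2, 2 and 2 without germ-free ZT22 replicate 2, and 0 in both directions without conventional ZT18 replicate 1, conventional ZT22 replicate 1, conventional ZT22 replicate 2 or germ-free ZT18 replicate 2, where 2747 to 3602 genes had an unadjusted p under 0.05. No call below therefore holds in all 7 such fits. All 204 genes kept their direction in each, but their lack of overlap fixed that in advance, so it adds no support. All 204 also passed without germ-free ZT22 replicate 1. A fit of all 21 libraries tested the mean of the arm differences at ZT18 and ZT22. It called 1680 genes higher (9.16%) and 1456 lower (7.94%), and 33 of the 33 and 169 of the 171 were among them. Its estimates as well as its spread differ from those of the fit with 7 libraries. Below, "in the 21-library fit" refers to that contrast, and a gene so marked did not pass with 7 libraries. Fold changes are those of the fit with 7 libraries unless stated. Genes named from a list beyond those past the test and its 2 most abundant other members were chosen after their values were seen.

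Among calls with a mean log2 CPM of 1 or more, unnamed gene models aside, Ppp1r3b (chr8:35375739-35388139, GRCm38, GENCODE M21) had the largest rise. Genes without a call reached higher, up to a log2 fold change of 5.73 in the epididymis and testis list. Ppp1r3b encodes a subunit that targets protein phosphatase 1 to glycogen and activates glycogen synthase. For Ppp1r3b, with libraries given in order of replicate number, conventional fat held 12.8 and 17.3 CPM at ZT18 and 7.54 and 6.98 CPM at ZT22, and germ-free fat 138 CPM at ZT18 and 63.8 and 163 CPM at ZT22. Every germ-free library lay far above every conventional one, with the lowest germ-free value in ZT22 replicate 1. The log2 fold change was 3.66 ± 0.37 (SE) with an adjusted p of 0.0359 in edgeR's quasi-likelihood test with Benjamini-Hochberg adjustment.

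**Figure D2:**
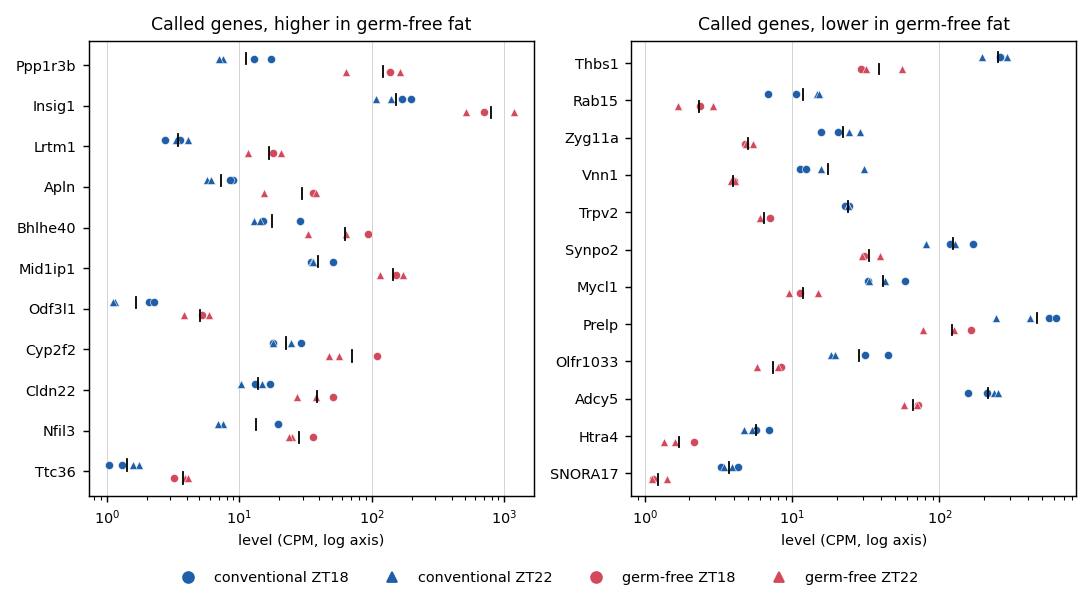
CPM (log axis) of 11 of the 12 genes with the largest rise and the 12 with the largest fall past the threshold in the 7 late-night libraries, 1 point a library by arm and time, black ticks marking group means. For each gene the 3 germ-free points lie wholly above or wholly below the 4 conventional points.

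Among genes of sterol control, Insig1 (chr5:28071363-28078662) rose: conventional fat held 198 and 167 CPM at ZT18 and 139.7 and 108 CPM at ZT22, and germ-free fat 708 CPM at ZT18 and 515 and 1173 CPM at ZT22. The germ-free libraries did not overlap the conventional ones, and the log2 fold change was 2.46 ± 0.33 (SE) with an adjusted p of 0.0401 in edgeR's quasi-likelihood test with Benjamini-Hochberg adjustment. Of the 14 lipogenic regulators this was the 1 gene past the test; none passed lower, and the list's median was 0.15. Srebf1, the SREBP of fatty acid synthesis, stood at 355 ± 80.7 CPM across conventional and 629 ± 227 CPM across germ-free libraries (SD, n = 4 and 3), a log2 fold change of 0.89 that passed in the 21-library fit (adjusted p = 0.0219, edgeR). Srebf2, the SREBP of cholesterol synthesis, had a log2 fold change of -0.00210 and Insig2 one of -0.31, both without a call. Pnpla3, a lipid droplet acylhydrolase driven by SREBP1, had 0.72 without a call.

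Msmo1, listed under its older symbol Sc4mol, rose as well: conventional fat held 29.5 and 32.8 CPM at ZT18 and 26.2 and 24.7 CPM at ZT22, and germ-free fat 52.2 CPM at ZT18 and 41.0 and 57.8 CPM at ZT22. All 3 germ-free values exceeded all 4 conventional values, with a log2 fold change of 0.87 ± 0.13 (SE) and an adjusted p of 0.0444 in edgeR's quasi-likelihood test with Benjamini-Hochberg adjustment.

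Of the 22 tested genes of the cholesterol list all had a log2 fold change above 0 and 20 were higher in germ-free fat without overlap, against 11.4% of all genes. With 7 libraries 2 passed higher, Msmo1 among them, and 0 lower, and 20 passed higher in the 21-library fit, against 9.16% of all genes. The list's median was 1.04 beside 0.03 for all genes. Hmgcs1 stood at 183 ± 11.3 CPM across conventional and 341 ± 101 CPM across germ-free libraries (SD, n = 4 and 3), a log2 fold change of 0.90. Sc5d, the lathosterol oxidase, had 1.39. Cyp51, the lanosterol demethylase, had 2.20, and Sqle, the squalene epoxidase, 1.73, and these 4 genes passed in the 21-library fit. The summed level of the list was 1223 to 2453 CPM in germ-free and 715 to 812 CPM in conventional libraries.

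None of the 20 genes of fatty acid synthesis passed with 7 libraries. Yet 14 were higher without overlap and 0 lower, against 11.4% and 12.3% of all genes. In the 21-library fit 15 passed higher, against 9.16% of all genes. The list's median log2 fold change was 1.50. For Acly, which makes cytosolic acetyl-CoA from citrate, conventional fat held 510.0 and 367 CPM at ZT18 and 957 and 240.1 CPM at ZT22, and germ-free fat 2009 CPM at ZT18 and 1786 and 10975 CPM at ZT22. Germ-free ZT22 replicate 2 was far above the other germ-free libraries, and the log2 fold change was 2.95 ± 0.79 (SE) (adjusted p = 0.0955, edgeR, 7 libraries). Fasn, the fatty acid synthase, stood at 3396 ± 1670.2 CPM across conventional and 12922 ± 8458 CPM across germ-free libraries (SD, n = 4 and 3), and Scd1, the main stearoyl-CoA desaturase of white fat, at 19883 ± 2515 CPM across conventional and 37077 ± 17548 CPM across germ-free libraries (SD, n = 4 and 3). Acss2, which makes acetyl-CoA from acetate, had a log2 fold change of 2.58, Thrsp, a lipogenic nuclear protein, one of 1.51, and both passed in the 21-library fit. The summed list reached 117657 CPM in germ-free ZT22 replicate 2, against 46156 and 48063 CPM in the other germ-free libraries and 26288 to 32513 CPM in conventional libraries. Mid1ip1 (chrX:10715013-10719690), whose protein promotes polymerisation of acetyl-CoA carboxylase, did pass: conventional fat held 34.8 and 50.9 CPM at ZT18 and 35.3 and 36.2 CPM at ZT22, and germ-free fat 151 CPM at ZT18 and 116 and 170.3 CPM at ZT22. Its germ-free libraries were all above the conventional ones, at a log2 fold change of 1.93 ± 0.18 (SE) with an adjusted p of 0.0359 in edgeR's quasi-likelihood test with Benjamini-Hochberg adjustment. An antisense gene overlaps 543 exon bases of Mid1ip1, and whether the counting used strand is not given in the sources used here, so its reads cannot be told from that gene's.

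**Figure D3:**
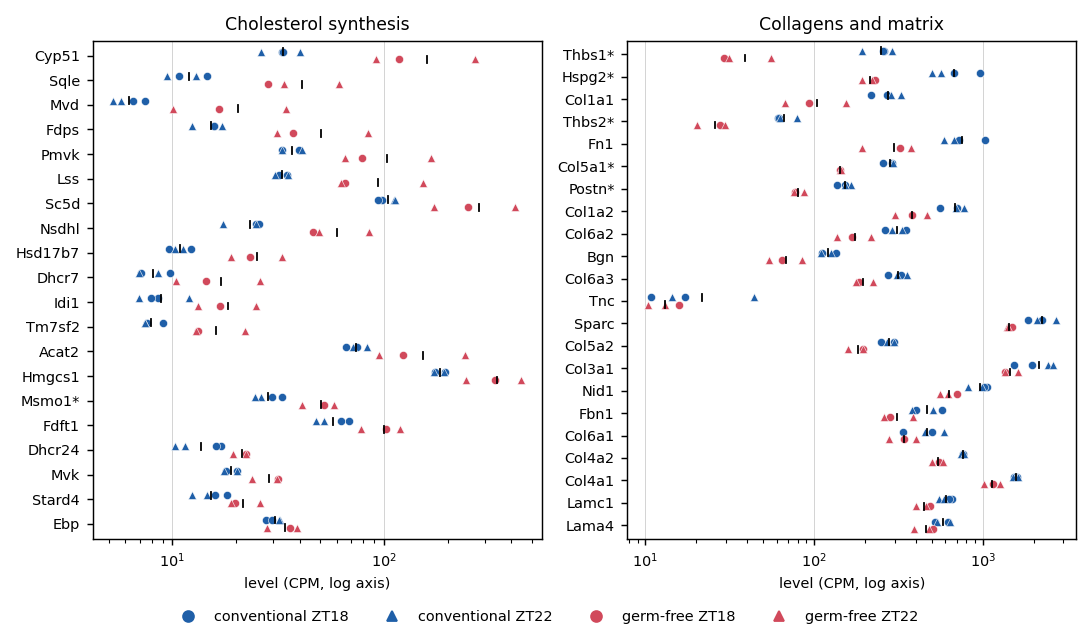
CPM (log axis) of 20 cholesterol genes and the 22 matrix genes with the lowest log2 fold change in each late-night library, 1 point a library by arm and time, black ticks marking group means and asterisks marking genes past the threshold. For 19 of these 20 cholesterol genes all germ-free points lie above all conventional points.

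No gene of fat storage or release passed with 7 libraries. Of 24 genes of triglyceride synthesis and lipid uptake 0 passed, and the median was 0.23. Of these 5 were higher and 3 lower without overlap, against 11.4% and 12.3% of all genes. Without germ-free ZT22 replicate 1 the higher count was 11 (20.3% of all genes then) and the median 0.34. Without germ-free ZT22 replicate 2 the median was 0.03. Fabp4, the fatty acid carrier, stood at 8318 ± 964 CPM across conventional and 8809 ± 1491 CPM across germ-free libraries (SD, n = 4 and 3) and Lpl, the lipoprotein lipase, at 7737 ± 1081 CPM across conventional and 7889.7 ± 1548 CPM across germ-free libraries (SD, n = 4 and 3). Agpat2, an acyltransferase of phosphatidic acid synthesis, had a log2 fold change of 1.77 and passed in the 21-library fit, while Pck1, the enzyme of glyceroneogenesis, had -1.49 and passed lower there. Of 14 droplet protein genes 0 passed, Plin4 having -0.60 and Cidec -0.35. Of 16 lipolysis genes 0 passed, 5 were lower without overlap (12.3% of all genes were) and the median was -0.24. Lipe, hormone-sensitive lipase, had -0.21 and Pnpla2, adipose triglyceride lipase, -0.48. The 5 became 8 without germ-free ZT18 replicate 2 (16.7% of all genes then), and that list's median ranged up to 0.01 over the other settings.

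Glycogen and glucose genes leaned higher. Of 23 tested 2 rose, Ppp1r3b and Ldhb, 0 fell, 13 were higher without overlap (11.4% of all genes were) and the median was 0.47. Ldhb, the heart-type subunit of lactate dehydrogenase, rose: conventional fat held 40.8 and 45.4 CPM at ZT18 and 42.5 and 39.1 CPM at ZT22, and germ-free fat 60.1 CPM at ZT18 and 63.0 and 62.7 CPM at ZT22. The groups did not overlap but lay close, at a log2 fold change of 0.57 ± 0.07 (SE) with an adjusted p of 0.0401 in edgeR's quasi-likelihood test with Benjamini-Hochberg adjustment. Gys2, a glycogen synthase better known from liver, stood at 4.76 ± 1.21 CPM across conventional and 35.5 ± 27.4 CPM across germ-free libraries (SD, n = 4 and 3), a log2 fold change of 2.87 that passed in the 21-library fit. Liver markers without Cyp2e1 summed to 262 CPM in germ-free ZT22 replicate 1 and 28.9 to 123 CPM elsewhere. Whether these bear on the Gys2 values was not tested. Hk2, the insulin-responsive hexokinase, had 0.69 and also passed in the 21-library fit. Ldha had 0.63 and Pygb, a glycogen phosphorylase, -0.26, both without a call in the 7-library fit. Rpia, a pentose phosphate isomerase, rose by a log2 fold change of 0.89 ± 0.10 (SE) with an adjusted p of 0.0359 in the same edgeR test.

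Mitochondrial genes lay slightly higher in germ-free fat. All 28 oxidative phosphorylation genes had a log2 fold change above 0, from 0.32 to 0.78. Of them 25 were higher without overlap, against 11.4% of all genes. With 7 libraries 0 passed, and 28 passed in the 21-library fit, against 9.16% of all genes. Atp5b and Atp5a1, subunits of the catalytic part of ATP synthase, had 0.57 and 0.56. Of 21 citric acid cycle genes 0 passed, 14 were higher without overlap and 18 passed in the 21-library fit, with a median of 0.51; Pdha1, of the pyruvate dehydrogenase complex, had 1.10 and Pcx, pyruvate carboxylase, 0.80. Of 21 fatty acid oxidation genes 0 passed, and 2 were higher and 1 lower without overlap, against 11.4% and 12.3% of all genes. The 2 became 14 without germ-free ZT22 replicate 1 (20.3% of all genes then) and 6 without conventional ZT22 replicate 1 (15.1%). Without conventional ZT18 replicate 1 (13.7%) or germ-free ZT18 replicate 2 (14.7%) they became 3. Acadm, the medium-chain acyl-CoA dehydrogenase, had 0.25.

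In the thermogenic list 1 of 13 tested genes rose. Ppargc1a, the coactivator of mitochondrial gene expression, was that gene: conventional fat held 8.51 and 9.15 CPM at ZT18 and 9.51 and 8.61 CPM at ZT22, and germ-free fat 16.1 CPM at ZT18 and 17.5 and 13.7 CPM at ZT22. Its libraries did not overlap between arms, at a log2 fold change of 0.82 ± 0.12 (SE) with an adjusted p of 0.0423 in edgeR's quasi-likelihood test with Benjamini-Hochberg adjustment. Dio2, the deiodinase that activates thyroid hormone, stood at 0.601 ± 0.214 CPM across conventional and 4.58 ± 2.50 CPM across germ-free libraries (SD, n = 4 and 3), a log2 fold change of 2.92 that passed in the 21-library fit. Ebf2, a brown lineage factor, had -0.28 and the channel gene Kcnk3 0.54, both without a call.

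**Figure D4:**
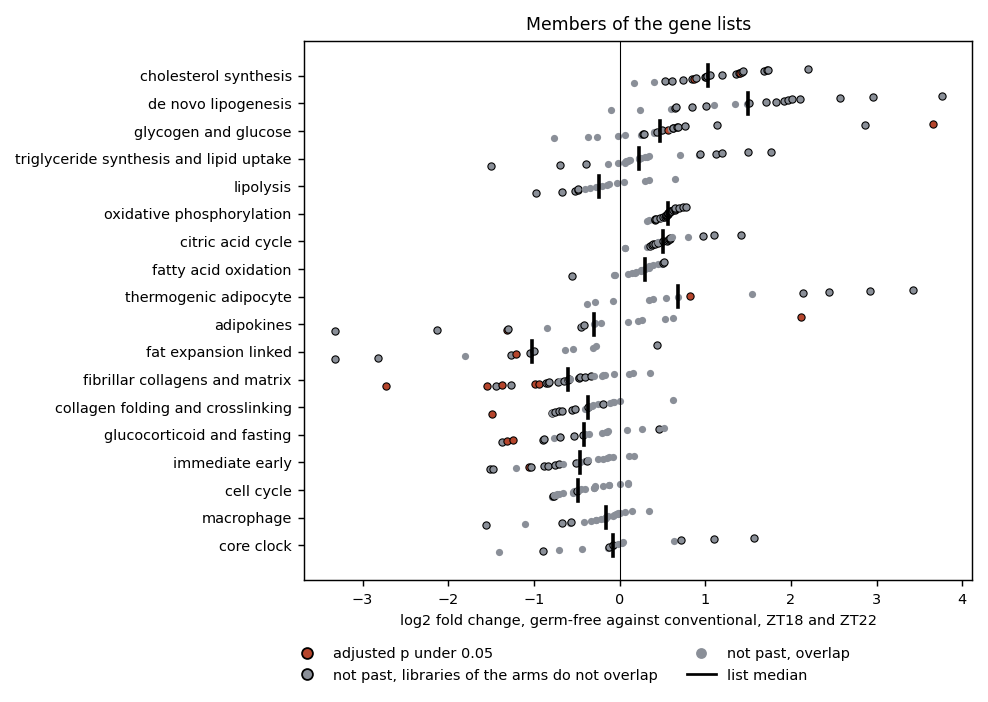
Late-night log2 fold change, germ-free minus conventional, of each tested member (points) of 18 gene lists, with list medians as black ticks, red points past the threshold and outlined points without overlap of the arms. The cholesterol and lipogenesis medians are 1.04 and 1.50, that of the matrix list -0.60.

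Genes of the adipocyte itself mostly did not pass. Of 18 identity genes 0 rose and 1 fell, Aoc3, the vascular adhesion amine oxidase: conventional fat held 1596 and 1046 CPM at ZT18 and 907 and 967 CPM at ZT22, and germ-free fat 610.3 CPM at ZT18 and 444 and 445 CPM at ZT22. Every germ-free value was below every conventional one, at a log2 fold change of -1.09 ± 0.16 (SE) with an adjusted p of 0.0431 in edgeR's quasi-likelihood test with Benjamini-Hochberg adjustment. Car3 and Cfd, 2 of the most abundant adipocyte transcripts, had 0.15 and 0.10 without a call. Of 17 adipokine genes 1 rose and 1 fell, against 0.18% and 0.933% of all genes. Without overlap 1 was higher and 6 were lower, against 11.4% and 12.3% of all genes. Apln, the peptide ligand of the apelin receptor, rose: conventional fat held 8.90 and 8.56 CPM at ZT18 and 5.67 and 6.11 CPM at ZT22, and germ-free fat 36.1 CPM at ZT18 and 15.3 and 37.9 CPM at ZT22. Its lowest germ-free library still exceeded its highest conventional one, at a log2 fold change of 2.12 ± 0.30 (SE) with an adjusted p of 0.0401 in the same edgeR test. Angptl4, the inhibitor of lipoprotein lipase that rises in fasting, fell: conventional fat held 598 and 442 CPM at ZT18 and 596 and 652 CPM at ZT22, and germ-free fat 209 CPM at ZT18 and 192 and 311 CPM at ZT22. The arms did not overlap, at a log2 fold change of -1.31 ± 0.20 (SE) with an adjusted p of 0.0458 in the same edgeR test. Adipoq, adiponectin, had -0.21 without a call.

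Of 12 genes linked to expanding fat 1 fell, 0 rose and 6 were lower without overlap (12.3% of all genes were), with a median of -1.02. The called gene was Trp53inp2, a regulator of autophagy and adipogenesis, at a log2 fold change of -1.21 ± 0.17 (SE) and an adjusted p of 0.0411 in edgeR's quasi-likelihood test with Benjamini-Hochberg adjustment. Npr3, the natriuretic peptide clearance receptor, had -1.27 and passed lower in the 21-library fit, and Cav1, the caveolar coat protein, -0.31 without a call. Sfrp5, a secreted Wnt inhibitor, stood at 34.8 ± 24.4 CPM across conventional and 3.44 ± 1.67 CPM across germ-free libraries (SD, n = 4 and 3), a log2 fold change of -3.32 that passed in the 21-library fit, as did Klf14 at -2.82.

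Extracellular matrix genes were lower. Of 30 tested 5 fell and 0 rose, against 0.933% and 0.18% of all genes. Without overlap 18 were lower, against 12.3% of all genes, and the median was -0.60. Thbs1 (chr2:118111876-118127133), thrombospondin 1, which activates TGF-beta, had the largest fall among the 12 lowest: conventional fat held 259.6 and 257 CPM at ZT18 and 193 and 289.6 CPM at ZT22, and germ-free fat 29.4 CPM at ZT18 and 55.9 and 31.5 CPM at ZT22. All germ-free values lay below all conventional values, at a log2 fold change of -2.73 ± 0.29 (SE) with an adjusted p of 0.0359 in edgeR's quasi-likelihood test with Benjamini-Hochberg adjustment. Col5a1, which nucleates collagen fibrils, fell: conventional fat held 290.2 and 257 CPM at ZT18 and 291 and 292 CPM at ZT22, and germ-free fat 143 CPM at ZT18 and 143 and 144 CPM at ZT22. The arms were well apart and each was tight, at a log2 fold change of -0.99 ± 0.08 (SE) with an adjusted p of 0.0284 in the same edgeR test. Postn, periostin, fell by 0.94 and Hspg2, the basement membrane proteoglycan perlecan, fell by 1.55 on the log2 scale (adjusted p = 0.0359 and 0.0359, edgeR); Thbs2 was the fifth gene past the test. Sparc and Col3a1, the most abundant members without a call, had -0.65 and -0.60. Prelp, a leucine-rich proteoglycan that anchors basement membranes, fell with -1.76 outside the list.

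Of 21 genes of collagen folding and crosslinking 1 fell, 0 rose and 9 were lower without overlap (12.3% of all genes were). Creb3l1, the transcription factor that drives collagen secretion, was that gene, at 11.5 ± 1.54 CPM across conventional and 4.17 ± 1.18 CPM across germ-free libraries (SD, n = 4 and 3), a log2 fold change of -1.49 ± 0.22 (SE) and an adjusted p of 0.0431 in edgeR's quasi-likelihood test with Benjamini-Hochberg adjustment. The collagen chaperone Serpinh1 had -0.07 and P4hb, protein disulfide isomerase, -0.19, both without a call. Since fold changes declined with exon length, the fit with exon length offsets bears on these counts. There 72 genes were lower and 16 higher, and 87 of these 88 were among the 204 calls of the 7-library fit. Of 41 named genes with a call 25 lost it there, Creb3l1 among them. With the offsets the median was -0.35 for the collagen folding list, against -0.36 without, and -0.46 for the matrix list, against -0.60.

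Immediate early and glucocorticoid-responsive genes leaned lower. Of 23 immediate early genes 1 fell, 0 rose and 10 were lower without overlap (12.3% of all genes were), with a median of -0.46. Zfp36, the mRNA decay factor tristetraprolin, fell: conventional fat held 44.2 and 30.8 CPM at ZT18 and 37.4 and 32.5 CPM at ZT22, and germ-free fat 19.2 CPM at ZT18 and 17.4 and 15.0 CPM at ZT22. The arms did not overlap, at a log2 fold change of -1.05 ± 0.15 (SE) with an adjusted p of 0.0411 in edgeR's quasi-likelihood test with Benjamini-Hochberg adjustment. Klf6 and Jund had -0.12 and -0.15 without a call, and Fos -1.51, which passed in the 21-library fit.

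Of 20 glucocorticoid and fasting genes 2 fell, Irs2 and Angptl4, and 0 rose. Without overlap 8 were lower (12.3% of all genes were), and the list's median was -0.42. Irs2, an adaptor of the insulin receptor, fell: conventional fat held 103 and 60.8 CPM at ZT18 and 66.0 and 72.3 CPM at ZT22, and germ-free fat 38.3 CPM at ZT18 and 28.2 and 26.0 CPM at ZT22. Every germ-free value was below every conventional one, at a log2 fold change of -1.25 ± 0.19 (SE) with an adjusted p of 0.0437 in edgeR's quasi-likelihood test with Benjamini-Hochberg adjustment. Txnip, the glucose-induced thioredoxin-binding protein, had -0.70 and the glucocorticoid receptor gene Nr3c1 0.09, both without a call. Irs2 was also the 1 gene past the test among 18 growth hormone and IGF genes, where Ghr had -0.22 and Igfbp4 0.05. Bag3, a cochaperone of the heat shock proteins, fell with -0.88 ± 0.13 (SE) (adjusted p = 0.0431, edgeR), the 1 of 16 heat shock and cold-inducible genes to pass, with Hspa8 at 0.28 and Hsp90ab1 at -0.22.

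Among detoxifying genes 2 of 21 rose and 0 fell, against 0.18% and 0.933% of all genes. Gsta4, a glutathione transferase for lipid aldehydes, rose by a log2 fold change of 1.10 ± 0.14 (SE) and Cyp2f2, a cytochrome P450 of airway cells, by 1.67 ± 0.26 (SE) (adjusted p = 0.0401 and 0.0465, edgeR). Cyp2e1 and Ces1d, abundant in fat, had -0.45 and 0.17 without a call.

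No core clock gene passed, 0 of 15 tested, with a median of -0.07 that turned to 0.12 with exon length offsets. Without overlap 3 were higher and 3 lower, against 11.4% and 12.3% of all genes. In the 21-library fit 3 passed higher and 2 lower, against 9.16% and 7.94% of all genes. Clock had -0.01 and Rora -0.07, both without a call, while Cry1, a repressor, had 1.10 and passed higher in the 21-library fit and Per1, its partner, had -0.89 and passed lower there. Of 12 clock output genes 2 rose and 0 fell, against 0.18% and 0.933% of all genes. Nfil3, the bZIP repressor that opposes Dbp, rose: conventional fat held 19.6 and 19.5 CPM at ZT18 and 7.54 and 6.92 CPM at ZT22, and germ-free fat 36.1 CPM at ZT18 and 25.0 and 23.5 CPM at ZT22. Its germ-free values were all above the conventional ones, at a log2 fold change of 1.41 ± 0.19 (SE) with an adjusted p of 0.0401 in edgeR's quasi-likelihood test with Benjamini-Hochberg adjustment. Bhlhe40, a bHLH repressor that feeds back on clock genes, rose: conventional fat held 15.1 and 28.5 CPM at ZT18 and 12.9 and 14.4 CPM at ZT22, and germ-free fat 92.7 CPM at ZT18 and 63.3 and 33.0 CPM at ZT22. Conventional ZT18 replicate 2 was the highest conventional library and still lay below all germ-free ones, at a log2 fold change of 1.93 ± 0.29 (SE) with an adjusted p of 0.0451 in the same edgeR test. Por and Nampt had -0.33 and 0.22 without a call.

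The other genes named for the size of their change were of mixed function. Trpv2 (chr11:62574486-62600515), a calcium-permeable channel, had the smallest adjusted p of all: conventional fat held 24.4 and 22.8 CPM at ZT18 and 24.1 and 23.9 CPM at ZT22, and germ-free fat 7.10 CPM at ZT18 and 6.04 and 6.03 CPM at ZT22. The arms were far apart, at a log2 fold change of -1.89 ± 0.10 (SE) with an adjusted p of 0.0105 in edgeR's quasi-likelihood test with Benjamini-Hochberg adjustment. Vnn1, the pantetheinase that releases cysteamine, fell with -2.15, Rab15, a GTPase of endosomal recycling, with -2.38, and Adcy5, an adenylyl cyclase, with -1.70. Synpo2, an actin-bundling protein, fell with -1.84, the Myc family gene Mycl1 (now Mycl) with -1.79, the serine protease gene Htra4 with -1.68 and Zyg11a with -2.19. The olfactory receptor gene Olfr1033 (-1.74) and the multi-copy small RNA SNORA17 (-1.61), whose reads the counting may split, complete the 12. Among genes that rose, Lrtm1 had 2.28, Odf3l1 1.77, Cldn22 1.53 and Ttc36 1.34. Cldn22, a claudin gene, lies wholly, over 995 bases, opposite an exon of Wwc2, so its reads are uncertain where strand was not used. The same holds, over smaller stretches of exon, for Bhlhe40, Cyp2f2, Ttc36, Thbs1, Col5a1, Prelp, Htra4, Prr5l, Zfp36, Irs2 and Hmgcs1, which genes on the opposite strand overlap. Other genes named in this text are so overlapped too, among them Slc1a1 over 2631 exon bases, Sav1 over 1336 and Lipe over 918. Jund is overlapped over 877, Angpt1 over 737, Txnip over 606 and Pdha1 over 603.

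The late night was then compared with the other 4 times. In the 14 libraries of those times 1084 of 18364 genes (5.9%) were higher and 1149 (6.26%) lower in germ-free fat, by the same edgeR test. Of the 33 late-night genes that rose 12 (36.4%) were among them, which is 1.11% of the 1081 such genes tested in both. Of the 171 that fell 107 (62.6%) were among them, which is 9.34% of 1145. Signs were the same at the other times for 29 of 33 and 168 of 171. The 2 sets of libraries are separate, and the tests differ in size, so these shares do not compare the strength of the response. Of 30 matrix genes 5 passed lower late at night, and 12 passed lower and 1, Tnc, higher at the other times, where the median was -0.28. Of 28 oxidative phosphorylation genes 0 passed late at night with 7 libraries and 24 passed higher at the other times, with a median of 0.35. Of 22 cholesterol genes 2 passed higher at each, and of 20 lipogenesis genes 0 passed at either, with medians at the other times of 0.11 and 0.18. The test of the difference, given next, passed for 1 of the 22 cholesterol genes and for 0 of the lipogenesis, oxidative phosphorylation and matrix genes.

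The difference itself, late-night effect minus the effect at the other times, passed for 9 of 18334 genes (0.0491%) in an edgeR quasi-likelihood contrast over 12 arm-by-time groups, and 2213 (12.1%) had an unadjusted p under 0.05. Ppp1r3b had the largest: its effect was 3.66 late at night and 0.30 at the other times, a difference of 3.42 ± 0.51 (SE) with an adjusted p of 0.0447 (edgeR). Mid1ip1 went from -0.22 to 1.93, a difference of 2.16 ± 0.25 (SE) with an adjusted p of 0.0267 (edgeR). In both the arms differed late at night and the effect at the other times lay between -0.22 and 0.30.

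Acsl3, a long-chain acyl-CoA synthetase of the droplet surface, differed by 1.16 ± 0.16 (SE) and Utp14b, a ribosome assembly factor, by 1.03 ± 0.14 (SE). These genes overlap on the same strand of chromosome 1, Acsl3 at chr1:78657825-78707743 and Utp14b at chr1:78658038-78671512, sharing 244 exon bases, so their counts are uncertain. Rpia differed by 0.78 ± 0.10 (SE). In the other direction stood Prr5l, a component of mTORC2, at -1.03 ± 0.14 (SE), Filip1l at -0.78 ± 0.10 (SE) and 4632428N05Rik (now Vsir), an immune checkpoint gene chosen after its values were seen, at -0.67 ± 0.10 (SE). Acsl3, Utp14b, Filip1l and 4632428N05Rik did not pass between the arms late at night with 7 libraries. Their late-night effects were 1.12, 0.70, -0.59 and -0.47, and those at the other times -0.07, -0.34, 0.14 and 0.24. Late at night the libraries of 4632428N05Rik overlapped between the arms. Rpia and Prr5l did pass late at night, with effects of 0.12 and 0.10 at the other times. Next in the test of the difference, without passing, came Sav1 and Fermt2 at an adjusted p of 0.0676 (edgeR). Insig1 and Nfil3 did not pass either, at adjusted p 0.0764 and 0.0676 (edgeR), so no difference from the other times was shown for them. The count of 9 also rested on single libraries: it was 193 without germ-free ZT22 replicate 1, 14 without conventional ZT18 replicate 2, 11 without germ-free ZT22 replicate 2, and 0 without conventional ZT18 replicate 1, conventional ZT22 replicate 1 or conventional ZT22 replicate 2, where 1649, 2025 and 1687 genes had an unadjusted p under 0.05 in edgeR.

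**Figure D5:**
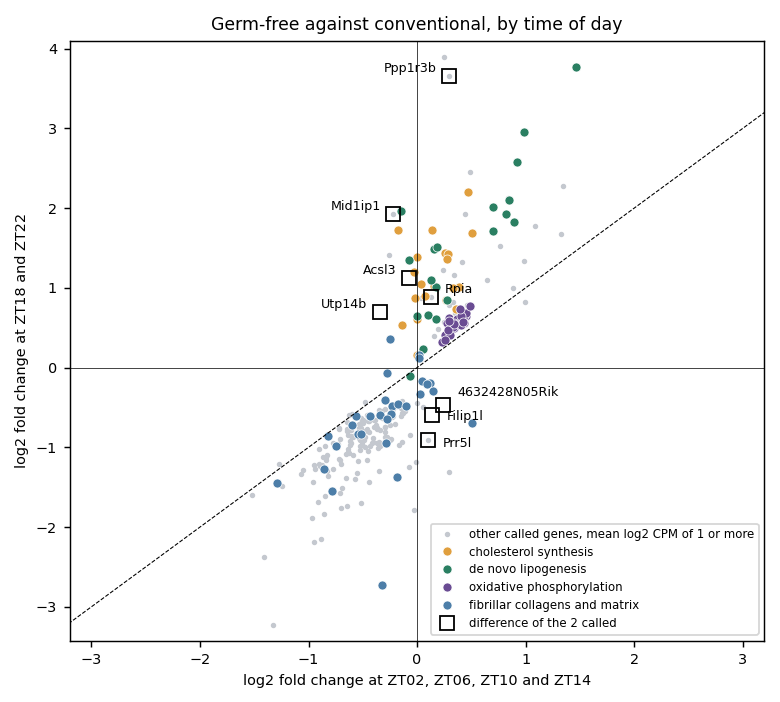
Log2 fold change, germ-free minus conventional, at the other 4 times (x axis) against late night (y axis), 1 point a gene, for called genes with a mean log2 CPM of 1 or more and 4 lists, with a dashed line of equality. Squares mark 8 of the 9 genes whose difference passed; Ppp1r3b lies at 3.66 late at night and 0.30 at the other times.

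Between ZT22 and ZT18 the arm difference passed in 0 of 18335 genes (0%) by edgeR, and 826 (4.51%) had an unadjusted p under 0.05. With 1 germ-free library at ZT18, that test has little to go on. The 5 genes of smallest p were Angpt1, an angiopoietin, with a ZT22 minus ZT18 difference of -1.13 on the log2 scale, Agt, angiotensinogen, with -1.47, O3far1 (now Ffar4), a receptor for long-chain fatty acids, with -1.12, the glutamate transporter gene Slc1a1 with 3.05 and Hspa4l with 1.36. None passed. None of the 5 passed between the arms with 7 libraries either, in that order at -0.21, -0.49, 0.13, 1.34 and -0.32. In the 21-library fit Slc1a1 passed higher, at 0.86, and Hspa4l lower, at -0.48 (adjusted p = 0.0187 and 0.0109, edgeR).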

How the data were processed

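RNA of epididymal fat was read as stranded total RNA after ribosomal RNA removal, per the labels' protocols. The deposited values are whole read counts per gene over exons, not normalized. Reads were aligned with STAR 2.4.0i to mm10, per the submitters' processing notes (counter, strand use and annotation: not given in the sources used here). Gene positions come from GENCODE M21 (36308 IDs matched), promoters from RefSeq on GRCm38.p6.

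From the counts, 18335 of 38087 genes passed edgeR 4.0.16's filter (R 4.3.3) and were scaled by TMM and fitted with time and arm (4 residual degrees of freedom). Replicates of a group differed by more than sampling noise (chi-square per degree of freedom from 37.6 to 177). Calls had a Benjamini-Hochberg adjusted p under 0.05. The difference from the other times was a contrast over 12 groups of 21 libraries. The check on simulated data, with 50 genes changed per fold, recovered 54% at 2-fold in the late-night comparison and 70% at 2-fold in the difference. False calls were 12 of 126 and 9 of 140, both above the share of 0.05 aimed at. Its noise was drawn independently for each gene, with the same spread in all libraries, whereas the real groups differed in spread. These rates may therefore not carry over to the data.

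Named genes are the 12 highest and 12 lowest log2 fold changes among calls whose mean log2 CPM reached 1, unnamed gene models left out, up to 4 called and 2 most abundant other members per list, the 10 smallest p of the difference from other times and the 5 smallest p between ZT22 and ZT18. The members and the 43 lists (750 of 754 genes in the table) were chosen with earlier results of these data known. Some genes of these sets are not reported here by name or value, and counts over genes or lists include them. Alternatives used limma 3.58.1 and DESeq2 1.42.0, other scaling and filters, covariates and left-out libraries; the covariates of liver without Cyp2e1 and of epididymis and testis were chosen after seeing the data.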

Additional observations from a re-analysis of the deposited data

Results flagged for a closer look

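For 4 values 1 conventional library lay far from the other 3. Conventional ZT18 replicate 2 held 28.5 CPM of Bhlhe40, against 12.9 to 15.1 CPM in the others, 50.9 CPM of Mid1ip1, against 34.8 to 36.2 CPM, and 257 CPM of Col5a1, against 290.2 to 292 CPM. Conventional ZT18 replicate 1 held 49.2 CPM of male accessory gland markers, against 0.416 to 1.68 CPM. Chance alone marks about 1 in 20 groups in this way, and 58 values were checked.

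The late-night effect differed from that at the other 4 times for 8 genes given here as log2 differences: Ppp1r3b 3.42, Mid1ip1 2.16, Acsl3 1.16, Utp14b 1.03, Rpia 0.78, 4632428N05Rik -0.67, Filip1l -0.78 and Prr5l -1.03, each past an adjusted p of 0.05 in edgeR's quasi-likelihood contrast.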

How the results depend on the processing

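The late-night comparison called 33 genes higher and 171 lower. All 204 kept their direction in every alternative in which they were tested. Since the arms did not overlap in any of them, leaving out libraries could not turn that direction. Their number was not stable. With no low count filter it was 102 higher and 374 lower, with DESeq2 1026 and 1347, and without the time covariate 269 and 502. With the motile cilium covariate it was 447 and 666, with the liver covariate 2 and 2, and with exon length offsets 16 and 72. In the 21-library fit it was 1680 and 1456. It was 0 and 0 at ZT22 only (2557 unadjusted), in the libraries numbered 2 only (4786), with the liver covariate without Cyp2e1 (4329) and with the epididymis and testis covariate (2942), the latter pair chosen after seeing the data. Leaving out 1 library gave 0 to 1005 higher and 0 to 826 lower; fewer samples stood behind each. Beyond this and the smaller fits, the cause was not tested. DESeq2 raised the difference from the other times from 9 to 393 genes, and leaving out a library gave 0 to 193. That difference could not be fitted without germ-free ZT18 replicate 2. Genes without a call that changed sign were Angpt1 (0.19) and Agt (0.013) with the liver covariate, and O3far1 (-0.33) and Hspa4l (0.20) both at ZT22 only and without germ-free ZT18 replicate 2; leaving out a library gave -0.33 to 0.28 for O3far1 and -0.51 to 0.20 for Hspa4l. Over the left-out libraries 20 to 21 cholesterol, 14 to 17 lipogenesis and 25 to 28 oxidative phosphorylation genes were higher without overlap. Matrix genes lower without overlap numbered 18 to 21. Other lists moved more, such as fatty acid oxidation from 2 to 14 higher and cell cycle from 3 to 17 lower. Fewer libraries leave less room for overlap, so the low ends of these ranges do not show stability. Over all genes the shares were 13.4% to 20.3% higher and 13.9% to 19% lower.

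No source used here says that a number marks a pair. Deviations from the group means of same-numbered libraries at ZT22 correlated at -0.22 across the arms, which is 1 independent value, and the single germ-free library leaves none for ZT18, so pairing was not shown. With the replicate block 0 genes were higher and 0 lower (3635 unadjusted), and 4 differed from the other times.

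Whether depth (24388294 counts or more) or the number of libraries limits the tests more was not tested.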

Other observations

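In the lists of immune and proliferation genes no gene passed with 7 libraries. Of 24 macrophage genes 0 passed, 0 were higher and 3 lower without overlap (12.3% of all genes were), with a median of -0.16. The 3 became 9 without conventional ZT18 replicate 1 (14.6% of all genes then) and 6 without germ-free ZT18 replicate 2 (16.7%). The medians there were -0.25 and -0.26. The list's median was -0.10 without conventional ZT18 replicate 2 or germ-free ZT22 replicate 1. Lyz2, lysozyme, had a log2 fold change of -0.34. Of 26 cell cycle genes 0 passed and 3 were lower without overlap (12.3% of all genes were), with a median of -0.48. That 3 became 17 without germ-free ZT22 replicate 1 (19% of all genes then) and 9 without conventional ZT22 replicate 1 (14.8%). Without conventional ZT18 replicate 1 it became 6 (14.6%). The median was -0.84 in the libraries numbered 2. Of 24 tested genes of microbial sensing and the acute phase 0 passed and 4 were lower without overlap (12.3% of all genes were). The 4 became 9 without conventional ZT18 replicate 1 (14.6% of all genes then) and 8 without germ-free ZT18 replicate 2 (16.7%). Among the 4 was Tlr5, the flagellin receptor, at 11.0 ± 0.905 CPM across conventional and 5.80 ± 1.20 CPM across germ-free libraries (SD, n = 4 and 3), a log2 fold change of -0.99 that passed in the 21-library fit and was chosen after its values were seen. Of 9 MHC class II genes 0 passed and the median was -0.03, which turned to 0.05 without conventional ZT18 replicate 2 and 0.03 without germ-free ZT22 replicate 1.

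All 24 cytosolic ribosomal protein genes had a log2 fold change above 0, with a median of 0.20. Of them 15 were higher without overlap, against 11.4% of all genes. With 7 libraries 0 passed, and 14 passed in the 21-library fit, against 9.16% of all genes. The 15 became 23 without conventional ZT22 replicate 1 (15.1% of all genes then). At the other 4 times 0 of the 24 passed, and the difference between late night and the other times passed for 0 of the 24. Of 16 endothelial genes 0 passed late at night and 1 was lower without overlap (12.3% of all genes were). This was Vwf, the von Willebrand factor, at -1.50. At the other times 10 passed higher, against 5.9% of all genes. The difference between late night and the other times passed for 0 of the 16 genes.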
